A study of Mus musculus with 76 samples.

Results

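The mRNAs described here are 10 of the 13 protein-coding transcripts of the mouse mitochondrial genome: mt-Nd3, mt-Nd4, mt-Nd4l and mt-Nd5 of complex I, mt-Cytb of complex III, mt-Co1, mt-Co2 and mt-Co3 of complex IV, and mt-Atp6 and mt-Atp8 of ATP synthase. They were chosen by name from a table of 14823 genes, after mt-Atp6, mt-Atp8 and mt-Nd4l had stood out when embryos of Both_10Cyp were set against Ctrl. That comparison is therefore described without a test. All 10 passed the filter on low counts, as did the other mRNAs in the table, mt-Nd1, mt-Nd2 and mt-Nd6, which serve as a reference. The mitochondrial ribosomal RNAs mt-Rnr1 and mt-Rnr2 were not analysed here.

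RNA was sequenced from the dorsal forebrain, the part of the brain that forms the cortex, of 76 mouse embryos (strain C57BL/6J), collected on embryonic day 16. The embryos themselves were not treated: their parents received vehicle or α-cypermethrin, a pyrethroid insecticide, during 28 days before mating (7 days of treatment, then 3 cycles of 2 days off and 5 days on). Ctrl embryos (n = 12) had both parents on vehicle. In the other groups the father alone, the mother alone or both parents had received a dose labelled 0.3 (Paternal_0.3Cyp, Maternal_0.3Cyp and Both_0.3Cyp, n = 12 each) or 10 (Paternal_10Cyp, n = 10, Maternal_10Cyp, n = 8, and Both_10Cyp, n = 10), for which the labels give no unit. Every group held both sexes and both labelled batches. The labels do not name litters, so embryos of a group may be littermates, and p-values would then be too small. The 6 comparisons with Ctrl share its 12 libraries. Since mt-Atp6, mt-Atp8 and mt-Nd4l had stood out against these same libraries, chance in the Ctrl values that helped to pick them also enters the tests of these genes and of their ratios in the other exposed groups.

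Mitochondria carry a small circular genome of their own. It is copied from both strands into long precursors, from which transfer RNAs are cut out and the mRNAs between them released. All of its proteins are core subunits of the respiratory chain or of ATP synthase, and each works only together with subunits encoded in the nucleus and imported. mt-Atp8 and mt-Atp6 lie on 1 shared mRNA with overlapping reading frames, as do mt-Nd4l and mt-Nd4. Fragments of mitochondrial DNA have also been inserted into nuclear chromosomes over evolution, and reads from an identical stretch cannot be assigned to 1 of the 2 places by sequence alone.

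The sequences bear on whether reads of an mRNA can be told from those of a nuclear copy. They are therefore shown for the mRNAs on which the results turn. In GENCODE M21 (GRCm38, the build the submitters' processing notes call mm10), mt-Atp8 spans chrM:7766-7969, 204 bases on the plus strand, and its last 43 bases, in capitals, are also the first bases of mt-Atp6 (chrM:7927-8607).
mt-Atp8: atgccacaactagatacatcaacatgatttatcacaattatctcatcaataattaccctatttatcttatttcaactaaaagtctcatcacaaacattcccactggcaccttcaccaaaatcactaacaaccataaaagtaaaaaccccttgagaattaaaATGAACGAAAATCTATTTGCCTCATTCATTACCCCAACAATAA
Only 7.47% of the words of 31 bases in mt-Atp8 occur in a nuclear transcript, all of them inside the stretch it shares with mt-Atp6. mt-Nd4l (chrM:9877-10173, 297 bases) is the opposite case. The annotated pseudogene Gm10222 on chromosome 1 (chr1:24612407-24612700, minus strand) carries all of it except the last 3 bases, which are in capitals.
mt-Nd4l: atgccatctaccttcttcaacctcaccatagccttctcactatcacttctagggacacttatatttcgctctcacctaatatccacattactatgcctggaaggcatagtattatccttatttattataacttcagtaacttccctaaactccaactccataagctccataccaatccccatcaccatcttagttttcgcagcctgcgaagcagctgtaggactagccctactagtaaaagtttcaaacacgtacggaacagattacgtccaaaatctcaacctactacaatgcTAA
Gm10222: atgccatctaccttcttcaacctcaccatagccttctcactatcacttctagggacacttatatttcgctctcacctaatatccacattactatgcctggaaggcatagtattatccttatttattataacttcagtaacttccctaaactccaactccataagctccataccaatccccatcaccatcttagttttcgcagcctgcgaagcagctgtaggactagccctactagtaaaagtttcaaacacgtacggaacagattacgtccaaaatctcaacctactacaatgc
The same holds at the end of mt-Atp6, shown here over its last 60 bases (chrM:8548-8607) beside the last 57 of Gm10925 (chr1:24613974-24614030, minus strand).
mt-Atp6: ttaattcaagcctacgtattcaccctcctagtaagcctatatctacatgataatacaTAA
Gm10925: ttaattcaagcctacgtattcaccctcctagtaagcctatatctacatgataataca
Over the whole of the aligned sequence, Gm10925 matched 678 of 678 bases of mt-Atp6. In mt-Nd3 a single base differed in 345 aligned to Gm28438, the substitution T3C counted from the 5′ end of mt-Nd3, in capitals in the first 60 bases of each (chrM:9459-9518 and chr1:24613060-24613119, minus strand).
mt-Nd3: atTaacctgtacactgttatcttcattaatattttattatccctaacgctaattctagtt
Gm28438: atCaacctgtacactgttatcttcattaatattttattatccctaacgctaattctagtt

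In all, 5 mRNAs were nearly complete in 1 nuclear copy by this measure, all within one stretch of chromosome 1: mt-Co3 (99.9% of its words of 31 bases, in Gm28437), mt-Atp6 (99.5%, in Gm10925), mt-Co2 (99.5%, in Gm28661), mt-Nd4l (98.9%, in Gm10222) and mt-Nd3 (98.1%, in Gm28438). For mt-Nd4 the share was 62.8%, in Gm28439, which matched 876 of 876 aligned bases and lacks the remaining 502. For mt-Co1 it was 45.2%, in Gm13340 on chromosome 2. It was 12.8% for mt-Nd5, 7.47% for mt-Atp8, 6.55% for mt-Cytb and 0% for mt-Nd1. Altogether, 21 nuclear genes shared at least 1 such word with a mitochondrial mRNA, and 0 of them are in the count table. Whether the copies were part of the index that the reads were assigned to is not given in the sources used here.

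In Ctrl, levels per kilobase of mRNA differed widely between the members although all but mt-Nd6 of the 13 are read from the same strand. mt-Co1, the catalytic subunit of cytochrome c oxidase, was the highest at 3699 ± 368 CPM per kilobase (SD, n = 12). CPM is the count of a gene per M counts of its library, on totals scaled by the TMM method, where M is the usual prefix mega. mt-Co2 followed at 2655 ± 583, mt-Atp6 at 2136 ± 308, mt-Cytb at 1700 ± 242, mt-Co3 at 1462 ± 406 and mt-Nd4 at 1042 ± 187. mt-Nd5 stood at 418 ± 66.8, mt-Nd4l at 206 ± 35.9, mt-Nd3 at 93.1 ± 29.8 and mt-Atp8 at 92.0 ± 11.6. In this order, the ranges of mean ± SD overlapped between each neighbouring pair from mt-Co2 down to mt-Nd4 and between mt-Nd3 and mt-Atp8. They did not overlap between mt-Co1 and mt-Co2, mt-Nd4 and mt-Nd5, mt-Nd5 and mt-Nd4l, or mt-Nd4l and mt-Nd3. The low level of mt-Atp8 against mt-Atp6, with which it shares a transcript, is a level per annotated length with no allowance for the loss of short fragments. The 10 members together took 1.43% ± 0.177 of all counts in Ctrl (range 1.22 to 1.75%).

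The spread between libraries was set beside the share that each mRNA has in a nuclear copy. With group, batch and sex removed, the SD of log2 CPM over the 76 libraries was 0.672 for mt-Nd3, 0.537 for mt-Atp6, 0.483 for mt-Co3, 0.369 for mt-Nd4l and 0.276 for mt-Co2, against a median of 0.184 over all genes tested. These are the 5 mRNAs with at least 90% of their words in 1 nuclear copy. For the other 8 mitochondrial mRNAs it ran from 0.135 (mt-Co1) and 0.143 (mt-Cytb) to 0.256 (mt-Atp8) and 0.268 (mt-Nd5), close to mt-Co2 with no gap between the sets. The highest library exceeded the lowest by 2.89 to 10.2 times in the first set and by 1.68 to 4.8 times in the second, and both upper ends came from Paternal_0.3Cyp replicate 8, a library that stands apart. Without that library these ratios were 2.89 to 7.34 and 1.6 to 2.41, with mt-Nd4l at 3.01 and mt-Nd5 at 1.81. The SD was then 0.254 for mt-Nd4l, 0.196 for mt-Atp8 and 0.181 for mt-Nd5. The ratio of the 90th to the 10th percentile of libraries, which single libraries touch little, was 1.54 for mt-Co2 and 1.72 for mt-Atp8, the reverse of their order by copy share. With all libraries kept, among the 200 nuclear genes nearest in level, 0 had a larger SD than mt-Atp6 or than mt-Co3, 1 had a larger SD than mt-Nd4l and 1 than mt-Nd3, while 103 exceeded mt-Co1 and 95 exceeded mt-Cytb. The part of the nuclear copies in this spread was not tested.

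**Figure D1:**
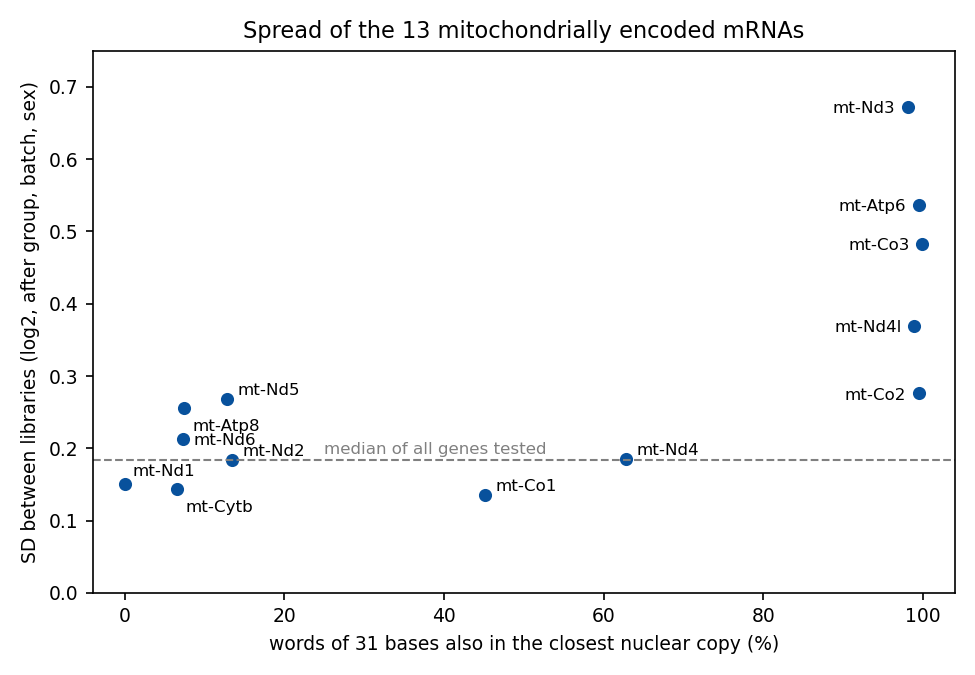
Each point is 1 of the 13 mitochondrially encoded mRNAs. The x axis is the share of its words of 31 bases that also occur in its closest nuclear copy (%), the y axis the SD of log2 CPM between libraries after group, batch and sex, and the dashed line the median of all genes tested. The 5 mRNAs above 90% lie between 0.276 and 0.672, the other 8 between 0.135 and 0.268.

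mt-Nd4, mt-Co1 and mt-Cytb moved together from library to library. Over the 76 libraries, all from the same count table and with group, batch and sex removed, Pearson's r was 0.938 between mt-Nd4 and mt-Cytb, 0.934 between mt-Co1 and mt-Cytb and 0.882 between mt-Nd4 and mt-Co1. Without Paternal_0.3Cyp replicate 8 these were 0.967, 0.936 and 0.87. mt-Atp6 and mt-Atp8, which form an mRNA, stood at 0.06, and at -0.06 without that library. mt-Nd4l and its partner mt-Nd4 stood at 0.73 (0.642 without it). For mt-Nd4l the library mattered elsewhere: r with mt-Atp8 was 0.66 with it and 0.361 without it, and r with mt-Atp6 was -0.15 with it and -0.40 without it. These values are descriptions and carry no p-value.

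ATP synthase, the rotary enzyme that makes ATP from the proton gradient, has 2 mitochondrially encoded subunits. mt-Atp8, a small subunit of its membrane part, was called against Ctrl in 3 of the 5 tested groups. In Ctrl it lay at 15.7 CPM in the lowest library, 18.5 at the median and 23.8 in the highest. In Paternal_10Cyp these were 22.9, 27.5 and 30.6, so that 1 Ctrl library reached into the range of Paternal_10Cyp. In Maternal_10Cyp they were 22.2, 27.2 and 30.5, and in Both_0.3Cyp 19.1, 23.3 and 26.9. The lowest libraries of both groups again fell among the higher Ctrl libraries. mt-Atp8 was 1.46-fold higher in Paternal_10Cyp (log2 difference 0.55 ± 0.10 SE, edgeR adjusted p = 0.00089), 1.42-fold in Maternal_10Cyp (0.51 ± 0.11, adjusted p = 0.00029) and 1.24-fold in Both_0.3Cyp (0.31 ± 0.10, adjusted p = 0.0195). In Paternal_0.3Cyp the log2 difference was 0.17 ± 0.10 (adjusted p = 0.187), and in Maternal_0.3Cyp 0.05 ± 0.10 (adjusted p = 0.736). Neither passed the threshold of 0.05. In bulk tissue, a change in the mix of cells and a change in RNA per cell cannot be told apart.

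Within batch 1 alone the log2 difference of mt-Atp8 was 0.66 in Paternal_10Cyp and 0.51 in Maternal_10Cyp, and within batch 2 alone 0.46 and 0.52, each with an adjusted p under the threshold (0.0124 to 0.0458). In Both_0.3Cyp it was 0.36 within batch 1 and 0.28 within batch 2, where it no longer passed (adjusted p = 0.134 and 0.253). Without Paternal_0.3Cyp replicate 8, the library lowest in mt-Atp8 (7.96 CPM), the difference of Paternal_0.3Cyp from Ctrl was 0.25 with an adjusted p of 0.0309. All 3 calls ended when the trend of counts with transcript length in each library was entered as an offset, an alternative chosen after seeing the data: mt-Atp8 then stood at 0.26 in Paternal_10Cyp, 0.06 in Maternal_10Cyp and 0.05 in Both_0.3Cyp, with adjusted p between 0.205 and 0.839. The trend was smoothed over nuclear genes and read at the annotated 204 bases. Only 50 nuclear coding genes under 500 bases were tested, so its value there rests mostly on longer genes.

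**Figure D2:**
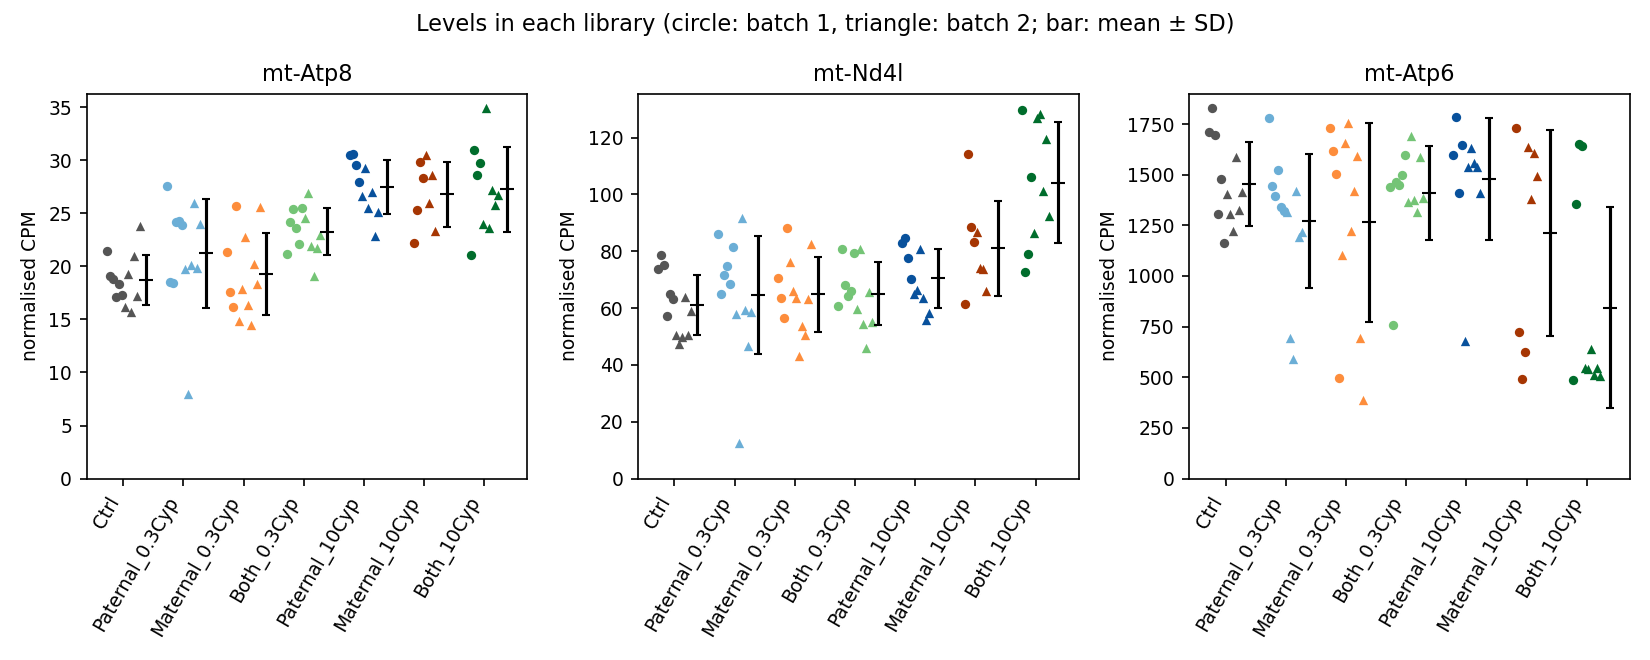
Normalised CPM of mt-Atp8, mt-Nd4l and mt-Atp6 (y axis, from 0) in each of the 76 libraries by group (x axis), with circles for batch 1, triangles for batch 2 and a bar for the mean ± SD of the group. mt-Atp8 lies at 22.2 or above in all libraries of Paternal_10Cyp and Maternal_10Cyp, and mt-Atp6 splits into libraries at or under 757 and libraries at or above 1102.

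mt-Atp6 forms the proton path of the same enzyme, and its level was not graded but split. In 59 of 76 libraries it lay at 1102 CPM or above, and in the other 17 between 388 and 757, with nothing between. The low values came from 0 of 12 Ctrl libraries, 2 of Paternal_0.3Cyp (replicates 8 and 9), 3 of Maternal_0.3Cyp (4, 11 and 12), 1 of Both_0.3Cyp (2), 1 of Paternal_10Cyp (5), 3 of Maternal_10Cyp (2, 3 and 4) and 7 of Both_10Cyp (1 and 5 to 10). Both batches held such libraries, 6 in batch 1 and 11 in batch 2. Within Maternal_10Cyp all of them were from batch 1, and within Both_10Cyp they were 6 of 6 libraries of batch 2 and 1 of 4 of batch 1. Samples were not regrouped by this value.

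In Ctrl mt-Atp6 ran from 1164 to 1827 CPM with a median of 1411. In Both_10Cyp it ran from 489 to 1652 with a median of 547. The fitted log2 difference was -0.81 ± 0.22 SE, given as a description since the genes were chosen from this contrast. It was -0.24 in a fit of batch 1 alone and -1.33 in one of batch 2 alone. In the 5 groups that were tested no difference of mt-Atp6 from Ctrl passed: the log2 difference ran from -0.24 ± 0.23 in Maternal_10Cyp to 0.02 ± 0.22 in Paternal_10Cyp, with adjusted p from 0.429 to 0.949. At this spread between libraries, differences of that size were not detectable.

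Depth moved with the low values in part. More than 21 M counts were held by all 10 libraries of Both_10Cyp, 4 libraries from Paternal_10Cyp, 2 from Maternal_0.3Cyp, 1 from Maternal_10Cyp and 0 from Ctrl. mt-Atp6 was low in 10 of these 17 deeper libraries and in 7 of the 59 others. Of the 10, 7 were from Both_10Cyp, 2 from Maternal_0.3Cyp and 1 from Maternal_10Cyp. Since every library of Both_10Cyp is deep and none of Ctrl is, depth and exposure cannot be told apart there. The 4 deeper Paternal_10Cyp libraries, among them the deepest of all at 41.4 M, were not low. Counts thinned at random to the smallest total left the number of members called at the same value in every tested comparison. Thinning keeps the expected proportions within a library, and mt-Atp6 was called in none of these comparisons. It therefore cannot show whether depth goes with the low values of mt-Atp6. Why some deeper libraries are low was not tested.

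**Figure D3:**
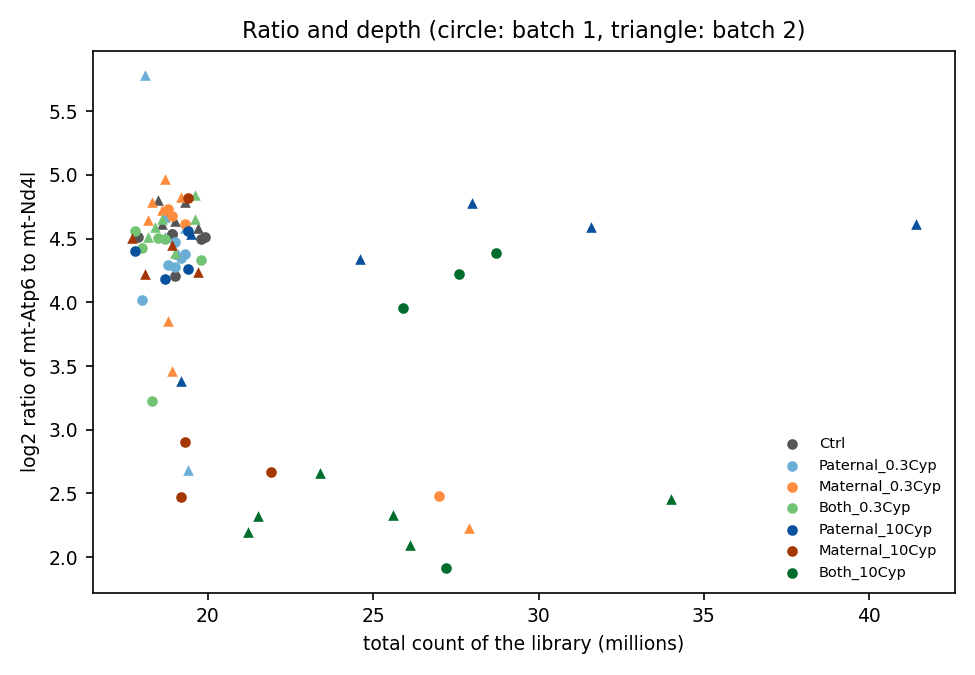
The log2 ratio of mt-Atp6 to mt-Nd4l (y axis) against the total count of the library in M counts (x axis), 1 point per library, coloured by group, circles for batch 1 and triangles for batch 2. The 12 Ctrl libraries lie between 4.21 and 4.80, 7 of 10 Both_10Cyp libraries lie under 3, and the deepest library, at 41.4 M, lies among the Ctrl values.

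Complex I, which passes electrons from NADH to ubiquinone, has most of the members. mt-Nd4l, a small subunit in its membrane arm, lay in Ctrl at 47.3 CPM in the lowest library, 61.0 at the median and 78.8 in the highest. In Maternal_10Cyp these were 61.4, 78.7 and 114, and 4 of 8 libraries lay above every Ctrl library. It was 1.33-fold higher there (log2 difference 0.41 ± 0.15 SE, edgeR adjusted p = 0.0187). The call was lost without Maternal_10Cyp replicate 2, the highest library (0.35, adjusted p = 0.0595), without the 15 deepest libraries (0.35, adjusted p = 0.0537), within batch 1 (0.34, adjusted p = 0.149) and within batch 2 (0.50, adjusted p = 0.103). With the offset for transcript length the value turned to -0.03 (adjusted p = 0.921). In the other 4 tested groups the log2 difference of mt-Nd4l ran from 0.08 to 0.23 and did not pass (adjusted p from 0.209 to 0.688). In Both_10Cyp it ran from 72.6 to 130 CPM with a median of 103.6, and the fitted log2 difference was 0.81 ± 0.14.

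mt-Nd4, the neighbour of mt-Nd4l on the same mRNA and a proton-pumping subunit, had a median of 1420 CPM in Ctrl (1053 to 1835) and medians of 1309 to 1498 in the exposed groups, with ranges that overlapped Ctrl in every group. mt-Nd5, another pumping subunit, had a median of 752 in Ctrl (585 to 982) and of 676 to 782 in the exposed groups. mt-Nd3, a subunit at the joint between the membrane and the matrix arm, spread from 18.1 to 50.2 CPM in Ctrl alone and from 9.14 to 67.1 within Maternal_0.3Cyp. None of the 3 passed in a tested group. The nearest to it was mt-Nd4 in Paternal_0.3Cyp (-0.15 ± 0.07, edgeR adjusted p = 0.114), which was called without Paternal_0.3Cyp replicate 9 (-0.19, adjusted p = 0.0391).

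mt-Cytb, the only mitochondrially encoded subunit of complex III, which hands electrons on to cytochrome c, was among the steadiest members. Its median was 1936 CPM in Ctrl (1539 to 2353) and 1808 to 2030 in the exposed groups. The log2 difference ran from -0.09 ± 0.06 in Paternal_0.3Cyp to 0.08 ± 0.06 in Paternal_10Cyp, and none passed (edgeR adjusted p from 0.24 to 0.914 in the tested groups).

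Of complex IV, the oxidase that reduces oxygen, mt-Co1 had a median of 5742 CPM in Ctrl (4702 to 6528) and the smallest difference that came close to the threshold, -0.14 ± 0.06 in Paternal_0.3Cyp (edgeR adjusted p = 0.055). It was called there by DESeq2 (-0.14, adjusted p = 0.0441) and by limma with quality weights (-0.16, adjusted p = 0.0295), and in edgeR without Paternal_0.3Cyp replicate 1 (-0.16, adjusted p = 0.0172) or replicate 9 (-0.16, adjusted p = 0.0185), or without Ctrl replicate 5, 6 or 9 (-0.14 to -0.15, adjusted p = 0.0384 to 0.0499). mt-Co2, which takes electrons from cytochrome c, had a median of 1870 in Ctrl (1083 to 2355) and log2 differences of -0.14 to 0.004 in the tested groups. mt-Co3, the third core subunit, ranged from 705 to 1586 in Ctrl and down to 375 in Maternal_10Cyp, where its log2 difference was -0.35 ± 0.21 (adjusted p = 0.181). In Both_0.3Cyp it was -0.33 ± 0.19 (adjusted p = 0.182).

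Counted over the 10 members, 0 were called in Paternal_0.3Cyp, where 27.6% of the 14339 genes tested were called, and 0 in Maternal_0.3Cyp, where 23.7% were. At an unadjusted p under 0.05 the numbers were 2 and 0 (5761 and 5480 of all genes), limma called 2 and 0, and DESeq2 1 and 0. The shares of all genes called by limma and DESeq2 were not taken. There was 1 member called in Both_0.3Cyp (all genes 22.3%), 1 in Paternal_10Cyp (21.5%) and 2 in Maternal_10Cyp (40.8%), all of them higher. Among genes called higher alone, the background was 10.5%, 10.7% and 20.4% in these 3 groups, so the members were called higher about as often as genes at large. The median log2 difference of the members lay between -0.10 (Paternal_0.3Cyp) and 0.07 (Paternal_10Cyp), beside -0.01 to 0.01 over all genes. In Both_10Cyp, 2 members were higher and 1 lower by the same rule, beside 3.91% of all genes (2.34% higher and 1.58% lower). The choice of members from that contrast fixes this count, and nothing is read from it. The other mRNAs, mt-Nd1, mt-Nd2 and mt-Nd6, were called in 0 of the 5 tested comparisons with Ctrl, their log2 differences running from -0.09 to 0.16.

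**Figure D4:**
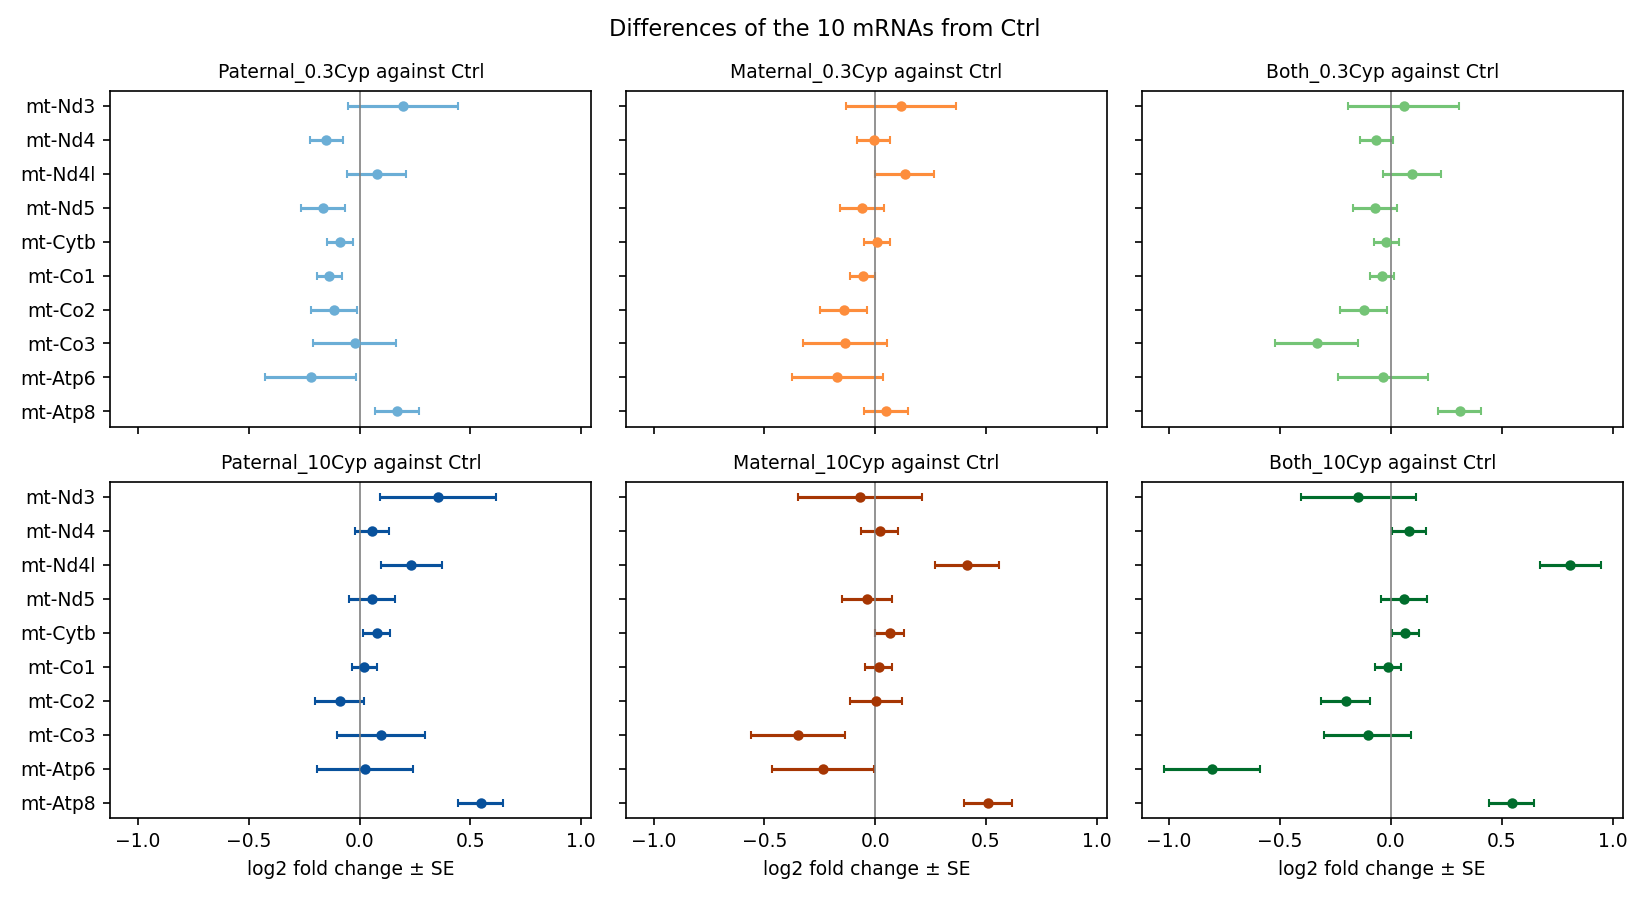
Log2 fold change against Ctrl (x axis) with its SE for the 10 members (y axis) in the 6 exposed groups, from 1 fit of all libraries. mt-Atp8 stands at 0.55 in Paternal_10Cyp, 0.51 in Maternal_10Cyp and 0.31 in Both_0.3Cyp, and the widest bars belong to mt-Nd3, mt-Atp6 and mt-Co3. The panel for Both_10Cyp is a description.

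No difference in the summed share of the 10 members was detectable. The members took 1.32% ± 0.202 of counts in Paternal_0.3Cyp, 1.35% ± 0.153 in Maternal_0.3Cyp, 1.37% ± 0.134 in Both_0.3Cyp, 1.45% ± 0.12 in Paternal_10Cyp and 1.40% ± 0.0989 in Maternal_10Cyp (SD over libraries). Against 1.43% in Ctrl, the exact permutation test within batches, 2-sided, gave adjusted p between 0.178 and 0.652, over 20 tests of 4 measures in 5 groups.

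Ratios between members leave the scaling of totals out. Each sets a gene of longer annotated length against a shorter one, so a trend taken by annotated length enters them. The same length trend was therefore taken off each ratio as an alternative, chosen after seeing the data. The log2 ratio of mt-Atp6 to mt-Atp8, both on 1 mRNA, was 6.27 ± 0.19 in Ctrl and ran from 5.90 to 6.58. It was lower in 4 of the 5 tested groups: by 0.37 in Paternal_0.3Cyp, 0.37 in Both_0.3Cyp, 0.55 in Paternal_10Cyp and 0.91 in Maternal_10Cyp, with adjusted p of 0.012, 0.00163, 0.000618 and 0.00163 in the exact permutation test. In Both_0.3Cyp 0 of 12 libraries and in Paternal_10Cyp 0 of 10 lay above the Ctrl mean, in Maternal_10Cyp 1 of 8 and in Paternal_0.3Cyp 2 of 12. With each library left out in turn, the 4 differences kept an adjusted p under 0.05, and that of Paternal_10Cyp stayed between -0.59 and -0.44 without or with its 1 library at the low level of mt-Atp6. Maternal_10Cyp has 3 libraries at that level (ratio 4.04 to 4.84, the others 5.73 to 6.28). Leaving out 1 library at a time does not remove these together. Paternal_0.3Cyp has 2: replicate 9 with the lowest ratio of its group (4.87) and replicate 8 with the highest (6.45). In Maternal_0.3Cyp the difference was -0.35 (adjusted p = 0.38). In batch 2 alone none of the 4 passed (-0.21 to -0.52, adjusted p = 0.0866 to 0.235). With the length trend taken off, the difference was -0.29 in Both_0.3Cyp (adjusted p = 0.0238), -0.45 in Paternal_10Cyp (adjusted p = 0.00309) and -0.77 in Maternal_10Cyp (adjusted p = 0.0238), which passed in the exact permutation test, and -0.27 in Paternal_0.3Cyp (adjusted p = 0.247), which did not.

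The log2 ratio of mt-Nd4 to mt-Nd4l, again on 1 mRNA, was 4.55 ± 0.15 in Ctrl, from 4.31 to 4.82. It was lower by 0.38 in Maternal_10Cyp (adjusted p = 0.00068, exact permutation test, 0 of 8 libraries above the Ctrl mean), by 0.16 in Both_0.3Cyp (adjusted p = 0.0248, 1 of 12 above) and by 0.18 in Paternal_10Cyp (adjusted p = 0.0374, 2 of 10 above). The last of these rested on few libraries: it missed the threshold without Ctrl replicate 1, 3, 4, 7 or 8 or without Paternal_10Cyp replicate 1, 2, 3, 6 or 7, with adjusted p from 0.0551 to 0.0968. None passed in batch 2 alone (-0.10 to -0.29, adjusted p = 0.167 to 0.529). With the length trend taken off, none passed either: the difference was -0.10 in Maternal_10Cyp (adjusted p = 0.52) and turned to 0.0011 in Both_0.3Cyp and 0.0058 in Paternal_10Cyp (adjusted p = 0.999 and 0.998). In Paternal_0.3Cyp the difference was -0.13 (adjusted p = 0.481), and without replicate 8 it was -0.27 (adjusted p = 0.000454).

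The log2 ratio of mt-Atp6 to mt-Nd4l was 4.58 ± 0.16 in Ctrl, from 4.21 to 4.80. It was lower by 0.80 in Maternal_10Cyp (adjusted p = 0.0109, exact permutation test), where it ran from 2.47 to 4.82. The difference was -1.25 in batch 1 and -0.34 in batch 2, and neither batch alone passed. With the length trend taken off it was -0.65 (adjusted p = 0.0831) and did not pass. In the other tested groups it was between -0.15 and -0.44 and did not pass. Without Paternal_0.3Cyp replicate 8, which has the highest ratio of all libraries (5.78), Paternal_0.3Cyp differed from Ctrl by -0.34 (adjusted p = 0.00438). In Paternal_10Cyp the value of -0.23 (adjusted p = 0.0658) passed without Ctrl replicate 6 or without Paternal_10Cyp replicate 4, 8 or 9 (-0.25 to -0.27, adjusted p = 0.0193 to 0.0484). In Both_10Cyp the 3 ratios, described only, differed from Ctrl by -1.68 (mt-Atp6 to mt-Nd4l), -0.68 (mt-Nd4 to mt-Nd4l) and -1.44 (mt-Atp6 to mt-Atp8).

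Paternal_0.3Cyp replicate 8 stood apart within the members. It held the lowest value of all 76 libraries for mt-Atp8 (7.96 CPM), mt-Nd4l (12.7), mt-Nd4 (735), mt-Nd5 (204), mt-Co1 (3823) and mt-Cytb (1433), and mt-Atp6 stood at 696. Not all members were low in it. mt-Co2 (1980), mt-Co3 (1577) and mt-Nd3 (42.8) lay above their medians over all libraries (1703, 1066 and 35.1). Of the reference mRNAs, mt-Nd6 (153) lay above its median of 125. mt-Nd1 (1282) and mt-Nd2 (446) lay under theirs (1309 and 599). The spread, the correlations and the tests that turned on it are given above with and without it.

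The members that were called also have the shortest annotated lengths, and nuclear genes with short transcripts were higher as a class in the exposed groups. mt-Atp8 and mt-Nd4l each lie on an mRNA shared with a longer neighbour, so their annotated length is not that of the mRNA. Among nuclear coding genes whose longest transcript is under 500 bases (50 genes), the median log2 difference from Ctrl was 0.31 in Paternal_0.3Cyp, 0.21 in Maternal_0.3Cyp, 0.24 in Both_0.3Cyp, 0.26 in Paternal_10Cyp, 0.41 in Maternal_10Cyp and 0.33 in Both_10Cyp. Among the 5172 genes over 4000 bases it lay between -0.07 and -0.16. In Maternal_10Cyp 54% of the shortest genes and 5.2% of the longest were called higher. mt-Atp8 (204 bases) exceeded the median of the shortest class in Both_0.3Cyp, Paternal_10Cyp, Maternal_10Cyp and Both_10Cyp, and lay under it in Paternal_0.3Cyp and Maternal_0.3Cyp. mt-Nd4l (297 bases) was equal to it in Maternal_10Cyp, above it in Both_10Cyp and below it in the other 4. With the length offset the members called became 4 lower in Paternal_0.3Cyp (mt-Nd4, mt-Co1, mt-Co2 and mt-Cytb), 1 lower in Maternal_0.3Cyp (mt-Co2) and 1 lower in Maternal_10Cyp (mt-Co3), and 0 in Both_0.3Cyp and Paternal_10Cyp. The share of all genes called with this offset was not taken, so these counts cannot be set against genes at large. The source of the length trend was not tested.

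**Figure D5:**
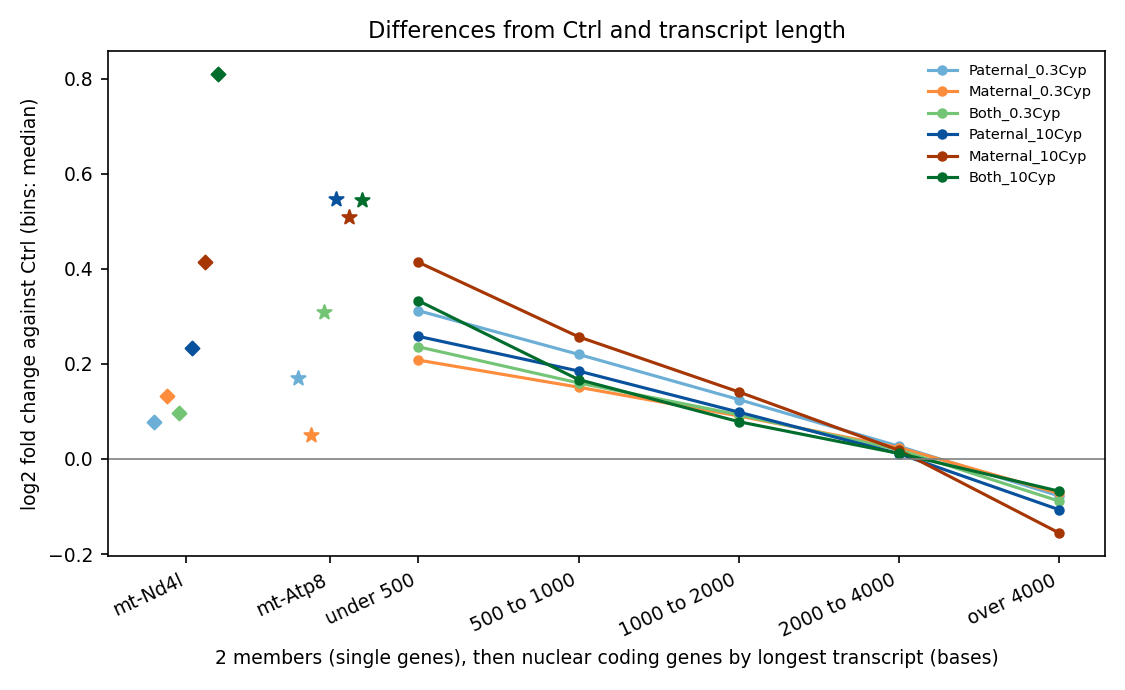
Log2 fold change against Ctrl (y axis) of mt-Nd4l and mt-Atp8 as single genes and, to their right, the median of nuclear coding genes in 5 classes of longest transcript length in bases, 1 colour per exposed group. The medians fall from 0.21 to 0.41 under 500 bases to between -0.07 and -0.16 over 4000 bases.

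Dose, sex and batch were compared across the same libraries. Between dose 10 and 0.3, 0 members were called by edgeR for fathers (9 genes or 0.0628% of all called) and 0 for mothers (0 genes, 0%). At an unadjusted p under 0.05 there were 5 members for fathers and 1 for mothers (1250 and 1291 of all genes), limma called 4 and 1, and DESeq2 0 and 1. Shares of all genes were not taken for limma and DESeq2 here either. mt-Atp8 was nearest to a difference, with log2 values of 0.38 ± 0.10 for fathers (adjusted p = 0.112) and 0.46 ± 0.11 for mothers (adjusted p = 0.197). For fathers it passed without Paternal_0.3Cyp replicate 1 (0.42, adjusted p = 0.0487) or replicate 8 (0.30, adjusted p = 0.0416). For mothers it passed in DESeq2 (0.46, adjusted p = 0.0464) and limma (0.46, adjusted p = 0.00334). Male and female embryos differed in 0 members by edgeR, limma and DESeq2 (13 genes or 0.0907% of all called, 0.0418% higher and 0.0488% lower in males), with 0 at an unadjusted p under 0.05 (586 of all genes).

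Batch 2 held less of most members than batch 1. Of the 10, 6 were lower and 0 higher, where 12.3% of all genes were lower and 12.7% higher: mt-Nd4 (-0.22 ± 0.04, edgeR adjusted p = 0.000126), mt-Nd4l (-0.23 ± 0.08, adjusted p = 0.0202), mt-Nd5 (-0.20 ± 0.06, adjusted p = 0.00835), mt-Cytb (-0.18 ± 0.03, adjusted p = 6.3e-05), mt-Co1 (-0.16 ± 0.03, adjusted p = 0.000213) and mt-Co2 (-0.21 ± 0.06, adjusted p = 0.00771). mt-Nd1, mt-Nd2 and mt-Nd6 were lower as well. With the offset for transcript length 0 of the 10 were called, and the share of all genes was not taken. In Ctrl alone, mt-Nd4l was 68.8 ± 8.31 CPM in batch 1 and 53.5 ± 6.43 in batch 2 (SD, n = 6 each). Of 100 tests of whether a difference from Ctrl changed with batch or with sex, 0 passed and 5 had an unadjusted p under 0.05.

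Nuclear genes that work with the members were counted from lists chosen with earlier results of these data known. In Maternal_10Cyp, where 20.4% of all genes were called higher, 31 of 36 nuclear subunits of complex I rose (median log2 difference 0.29), among them Ndufa6 (0.48 ± 0.09 SE), Ndufa2 (0.48 ± 0.10) and Ndufa12 (0.35 ± 0.08). All 9 of complex III rose (median 0.30), with Uqcr11 at 0.48 ± 0.10 and cytochrome c1 (Cyc1) at 0.17 ± 0.04, and all 12 of complex IV (median 0.28), with Cox7c at 0.49 ± 0.10. Of ATP synthase 14 of 16 rose (median 0.22), with Atp5k at 0.67 ± 0.13, Atp5j at 0.39 ± 0.07 and the catalytic Atp5b at 0.16 ± 0.03. The mitochondrially encoded subunits of the same complexes had a median of 0.01 there, beside -0.01 over all genes. In Paternal_0.3Cyp, where 15.4% of all genes were called higher, the numbers were 30 of 36, 8 of 9, 11 of 12 and 12 of 16, and 0 of the 10 members. In Maternal_0.3Cyp they were 4, 3, 2 and 1, in Both_0.3Cyp 5, 4, 1 and 3, and in Paternal_10Cyp 21, 8, 8 and 8. Of all genes, 10.9%, 10.5% and 10.7% were called higher in these 3 groups. Nuclear genes of 500 to 1000 bases as a class rose in 56.1% of cases in Maternal_10Cyp and 52.7% in Paternal_0.3Cyp, and the part of length in these counts was not tested.

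Genes that copy and transcribe the mitochondrial genome were called higher in 7 of 18 cases in Maternal_10Cyp and lower in 0 (median 0.16), where 20.4% of all genes were called higher and 20.4% lower. Ssbp1, which binds single-stranded mitochondrial DNA, stood at 0.42 ± 0.10 (edgeR adjusted p = 0.000619), Tefm, an elongation factor of the mitochondrial polymerase, at 0.24 ± 0.08 (adjusted p = 0.0131), and Tfam, which packages the genome and starts transcription, at 0.18 ± 0.06 (adjusted p = 0.0121). In the other tested groups 2 to 5 of the 18 rose, where 10.5 to 15.4% of all genes were called higher. Of 25 genes that process or degrade mitochondrial RNA, 11 rose and 1 fell in Maternal_10Cyp. In the other tested groups 2 to 8 of the 25 rose and 0 to 1 fell. Of all genes, 10.5 to 15.4% were called higher and 10.8 to 12.8% lower there. The part of transcript length in these counts was not tested. In Maternal_10Cyp, Nsun4, an RNA methyltransferase of the mitochondrial ribosome, stood at 0.35 ± 0.07. Ptcd3, a protein of the small mitochondrial ribosomal subunit, stood at 0.15 ± 0.04, and Fastkd1 fell by 0.24 ± 0.06. Of 11 translation factors 2 rose, Oxa1l, which inserts mitochondrial products into the inner membrane (0.11 ± 0.04), and Taco1, an activator of mt-Co1 translation (0.17 ± 0.07). Tsfm stood at 0.18 ± 0.08 and did not pass. This count is near the background. Of 9 nuclear regulators of mitochondrial biogenesis 3 rose and 2 fell, with Esrra at 0.31 ± 0.06, Nrf1 at 0.22 ± 0.05 and Pprc1 at -0.23 ± 0.07, again not far from the share of all genes.

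By the rule for likeness, the nuclear genes whose log2 CPM followed a member most closely over the 76 libraries, among 9793 genes with a mean of at least 10 CPM, were named without a test. For mt-Atp8 these were Rad23b (r = 0.647), Ubtd2 (0.63), Cyb5d1 (0.609) and Wdr48 (0.578), and the most opposed Pla2g15 (-0.571) and Pex6 (-0.493). For mt-Nd4l they were Cyb5d1 (0.681), Rad23b (0.676), Pogk (0.651) and Xkr7 (0.638), with Tada3 (-0.579) among the opposed. mt-Atp6 had no gene above 0.461 (D17Wsu92e, then Cplx2, Slc39a3 and Pabpc1), while Csnk2a2 stood at -0.624 and Rpl38 at -0.526. For mt-Cytb they were Ap3s2 (0.62), Bzw1 (0.59), Snx12 (0.588) and Slc25a17 (0.572), against Igf2r (-0.569) and Eif4g1 (-0.536), and for mt-Co1 Ap3s2 (0.588), Naa60 (0.575), Slc25a17 (0.552) and Rab39b (0.548), against Igf2r (-0.471) and Ahctf1 (-0.468). The libraries share group, batch and depth, and these values include all 3.

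The tissue label was checked on markers. All 12 dorsal forebrain markers were present, with a summed level of 1710 to 4250 CPM per library. Erythroid markers (9 of 10 in the table, with Hba-x among those that averaged under 1 CPM, and Hbb-y and Hba-x were at 0 in 5 libraries each) summed to 1370 to 2000 CPM in Ctrl (median 1490) and to 1310 to 3560 in the exposed groups (medians 1800 to 1910). In Paternal_0.3Cyp 7 of 9 were called higher, where 15.4% of all genes were. In Paternal_10Cyp 3 were (all genes 10.7%), in Maternal_0.3Cyp and Both_0.3Cyp 2 each (10.9% and 10.5%) and in Maternal_10Cyp 0 (20.4%). Diencephalon markers (8 of 8, Tal2 and Pou4f1 under 1 CPM) summed to 17.3 to 183 in Ctrl and to 408 in 1 Paternal_0.3Cyp library, and 5 of 8 were higher in that group (median log2 difference 0.97) and 0 in the other 4. Choroid plexus markers had medians of 0.22 to 0.60, the highest in Paternal_10Cyp, with 1 of 6 called in Paternal_0.3Cyp and 0 elsewhere. Meninges markers had medians of -0.68 in Maternal_10Cyp, -0.34 in Paternal_10Cyp and 0.07 to 0.21 in the groups of dose 0.3. Of these 7 markers 1 was lower in each tested group except Maternal_0.3Cyp, where 0 were. Of 7 endothelial markers 2 were lower in Maternal_10Cyp and in Paternal_10Cyp, and 1 in each group of dose 0.3. Of all genes 20.4% were lower in Maternal_10Cyp, 10.8% in Paternal_10Cyp and 11.8 to 12.8% in the groups of dose 0.3. Of 8 microglia markers 1 was higher in Maternal_0.3Cyp and 0 in the other tested groups. The part of these cells in the differences of the members was not tested.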

How the data were processed

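Total RNA from dorsal forebrain was sequenced, and the authors deposited estimated counts per gene, made with Trim Galore 0.5.0, Salmon 1.10.1 and mm10, per the submitters' processing notes. The expected counts were rounded to whole numbers here. The smallest library held 17.7 M counts, the largest 41.4 M and the median one 19.2 M, so that a gene at 1 CPM rests on about 19 counts. Of 14823 genes, 14810 carry a symbol, and 14339 passed the filter of edgeR 4.0.16 (filterByExpr by group). Salmon shares reads that match several transcripts between them by estimation, and whether the nuclear copies took part in this is not given in the sources used here.

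All 76 libraries were fitted together in R 4.3.3 by edgeR's quasi-likelihood test with TMM scaling and terms for group, batch and sex, and p-values were adjusted by Benjamini-Hochberg over all genes (threshold 0.05). The share of counts and 3 log2 ratios were tested by exact 2-sided permutation within batches, adjusted over 20 tests. Alternatives used DESeq2 1.42.0 and limma 3.58.1 (voom with quality weights), other scalings, filters, depths, batches and left-out libraries. Sequences and lengths came from GENCODE M21 through Biopython 1.88, and tables were made in Python 3.11.15 with pandas 2.3.3. The fitting was tested on simulated data.

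The members and gene lists were chosen with earlier results of these data known. Named genes were the members, the other mitochondrial mRNAs, up to 3 genes of lowest p in Maternal_10Cyp per mitochondrial list, and for 5 members the 4 nuclear genes of highest and 2 of lowest correlation with a mean of at least 10 CPM, except that 1 such gene is not reported here. Gm11808, the only gene on the list of nuclear copies that is in the table, shares no 31-base word with the mitochondrial mRNAs and was not treated as a copy.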

Additional observations from a re-analysis of the deposited data

Results flagged for a closer look

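Paternal_10Cyp replicate 5 lay far below the other 9 libraries of its group in 3 related values. mt-Atp6 stood at 677.1 normalised CPM, where the next lowest library had 1408. The log2 ratio of mt-Atp6 to mt-Nd4l was 3.384 (next 4.183), and that of mt-Atp6 to mt-Atp8 was 4.67 (next 5.574). It is 1 of the 17 libraries at the low level of mt-Atp6, and its total of 19.2 M counts is not among the deeper ones. Paternal_10Cyp replicate 5 was not alone in this. Both_0.3Cyp replicate 2 was also the lowest of its group in mt-Atp6 (757, next 1314). It was lowest too in the ratios to mt-Nd4l (3.227, next 4.33) and to mt-Atp8 (4.966, next 5.797). The rule used here did not mark Both_0.3Cyp replicate 2. In all, 42 sets of values were examined by that rule, of which chance alone would mark about 2.1.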

How the results depend on the processing

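The number of members called was the same with DESeq2 size factors, without mitochondrial genes in the totals, without the filter, without the batch term and after thinning. It was otherwise in Maternal_10Cyp 1 (replicate block, batch 1, batch 2, without the deepest libraries, length offset), in Both_0.3Cyp 0 (either batch alone, length offset), in Paternal_10Cyp 2 (only the groups compared) and 0 (length offset), in Paternal_0.3Cyp 2 (limma), 1 (DESeq2) and 4 (length offset), in Maternal_0.3Cyp 1 (length offset), between batches 0 (replicate block, length offset), between paternal doses 4 (limma) and between maternal doses 1 (limma, DESeq2). The share of all genes called was not taken under these settings, so these counts cannot be set against genes at large. The length offset was chosen after seeing the data. It turned mt-Nd4l in Maternal_10Cyp to -0.0276, and the ratio of mt-Nd4 to mt-Nd4l to 0.00112 in Both_0.3Cyp and 0.0058 in Paternal_10Cyp. No longer past the threshold were that ratio in Maternal_10Cyp (-0.102), mt-Atp6 to mt-Nd4l in Maternal_10Cyp (-0.65) and mt-Atp6 to mt-Atp8 in Paternal_0.3Cyp (-0.272). The replicate block ended all 6 calls between batches, with mt-Nd5 at 0.00993, and the call of mt-Nd4l in Maternal_10Cyp (0.391, adjusted p = 0.0526). Most replicate numbers occur in a single batch in every group, so the block takes up most of the batch difference. Nothing is read from the loss of the batch calls. The log2 ratio of mt-Atp6 to mt-Nd4l in Maternal_10Cyp was -1.25 in batch 1, -0.338 in batch 2 and -0.766 with the replicate block, and none passed. In Paternal_10Cyp it was -0.353 without the deepest libraries and passed. In batch 2 the ratio of mt-Nd4 to mt-Nd4l was -0.121 in Both_0.3Cyp, -0.0967 in Paternal_10Cyp and -0.285 in Maternal_10Cyp, and that of mt-Atp6 to mt-Atp8 was -0.415 in Paternal_0.3Cyp, -0.211 in Both_0.3Cyp, -0.517 in Paternal_10Cyp and -0.381 in Maternal_10Cyp, all past the threshold no longer. In batch 1 mt-Nd4 to mt-Nd4l in Paternal_0.3Cyp was -0.252 and passed. A batch holds fewer samples, and the other causes were not tested. Leaving out each library gave, for mt-Atp6 to mt-Nd4l, -0.339 to -0.044 in Paternal_0.3Cyp and -0.266 to -0.117 in Paternal_10Cyp, for mt-Nd4 to mt-Nd4l -0.266 to -0.0917 and -0.208 to -0.147, and for members called 0 to 2 in Paternal_0.3Cyp, 1 to 2 in Maternal_10Cyp and 0 to 1 between paternal doses. Deviations correlated above 0.1 in 78 of 210 same-numbered pairs of libraries, and in 0 of 21 pairs of groups throughout. No rate was taken for pairs of unlike number, so these values cannot decide whether replicate numbers pair the libraries. Adding reads of the nuclear copies was not run, since 0 of the 21 copies are in the table.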
